A study of Mus musculus with 10 samples.

Results

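The proteasome is the barrel-shaped protease that degrades ubiquitin-tagged proteins, including those pulled out of the endoplasmic reticulum by the degradation pathway that pancreatic β cells rely on for misfolded secretory proteins. Its core particle is built of alpha rings, which gate the entry, and beta rings, which carry the protease sites. Its regulatory cap is built of a base of ATPases that unfold the substrate and a lid that removes the ubiquitin, while other activators, an inhibitor and dedicated chaperones bind or assemble these parts. The genes described here are the rows of the expression table named Psma, Psmb, Psmc, Psmd, Psme, Psmf or Psmg with a number, without the immunoproteasome subunits Psmb8, Psmb9 and Psmb10. This rule gave 45 genes of 47340, chosen by name only, of which 43 passed the filter of a mean of at least 1 FPKM (sequenced fragments, scaled to exon length and to library size) in FL or in KO that left 13065 genes to test.

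RNA was sequenced from islets of 5 FL and 5 KO male mice at 12 wk of age on chow, with 1 library per mouse, after a night in culture. FL mice carried floxed alleles of FIT2 (Fitm2), an endoplasmic reticulum protein of lipid droplet formation, and are given as wild type in the genotype labels. KO mice (βFIT2KO) carried the same floxed alleles with Cre recombinase driven by a rat insulin promoter, from the line B6.Cg-Tg(Ins2-cre)25Mgn/J. The deletion was thus directed at β cells and not at the alpha, delta, acinar, vascular and immune cells of the islet preparation. Fitm2 in those other cells was not measured separately. FL controls lacked Cre, and islets with Cre alone were not analysed here. The libraries were made from whole islets, so fewer cells of a type and less RNA per cell cannot be told apart in any value below. Each limma p-value sets the difference between the groups against the spread between mice within a group, drawn toward that of other genes. Permutation and rank p-values set the difference against all relabellings of the mice.

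Fitm2 was at 23.3 ± 9.86 (FL) and 6.95 ± 2.36 FPKM (KO; SD, n = 5), and no KO library reached the FL range. Low values were spaced as if the other libraries held 1.41 to 2.41 times the reads of FL mouse 1, and the number of reads itself is unknown. The β cell factor Pdx1 (90.6 FPKM in FL) and the delta cell hormone Sst (4980 FPKM) were present as islets have them, but Ins1, Ins2, Iapp and Gcg, which islets express at high levels, were listed at 0 in every library, so that a gene listed at 0 here may be one whose estimate failed. By the limma calls described below, 6 of 7 tested β cell markers fell in KO, as did 2 of 5 alpha and 1 of 3 delta markers. Of the acinar markers 0 of 5 fell, and of the ductal markers 0 of 3. Meanwhile 1 ductal (Cftr), 0 PP, 3 of 7 macrophage and leukocyte, 3 of 4 endothelial and 4 of 4 stellate and fibroblast markers rose. Over all tested genes the same calls gave 16.5% lower and 9.05% higher. Counts such as 1 of 3 or 0 of 5 are therefore not read as a result about a cell type. The summed FPKM of the β cell markers ranged from 2270 to 2840 in FL and from 1510 to 2120 in KO, that of the macrophage and leukocyte markers from 208 to 260 and from 272 to 325, that of the endothelial markers from 105 to 122 and from 126 to 170, and that of the stellate markers from 9.61 to 17.3 and from 21.4 to 26.6. These markers moved with genotype beside every proteasome value below, and their part in those values was not tested.

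Most proteasome genes differed little between FL and KO islets. In limma with Benjamini-Hochberg adjustment over all 13065 tested genes, 3 of the 43 tested members fell in KO at an adjusted p of 0.05 (Psme1, Psmc4 and Psmd1), where 16.5% of all tested genes did, and 0 rose, where 9.05% of all tested genes did. At an unadjusted p of 0.05, limma gave 6 members lower and 4 higher, 23.3% of the members, where 37.7% of all tested genes passed. In an exact Wilcoxon rank test with Benjamini-Hochberg adjustment 3 members fell and 1, Psmd7, rose, where 12.5% and 6.67% of all tested genes did. The members' log2 fold changes of FPKM + 1 ran from −0.22 to 0.18 around a median of −0.011, with 24 below 0 and 19 above, while the median over all tested genes was −0.056. The 95% intervals from limma lay within a 1.5-fold change either way for 42 of the 43 members, against 82.5% of all tested genes, and within a 1.2-fold change for 36, against 33.0%. Among the 5815 tested genes whose mean FPKM lay in the members' range, the same shares were 90.1% and 42.2%. Psmd13 was the member outside the wider bound, joined outside the narrower one by Psmb4, Psmd6, Psmd8, Psme1, Psmf1 and Psmg1.

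**Figure D1:**
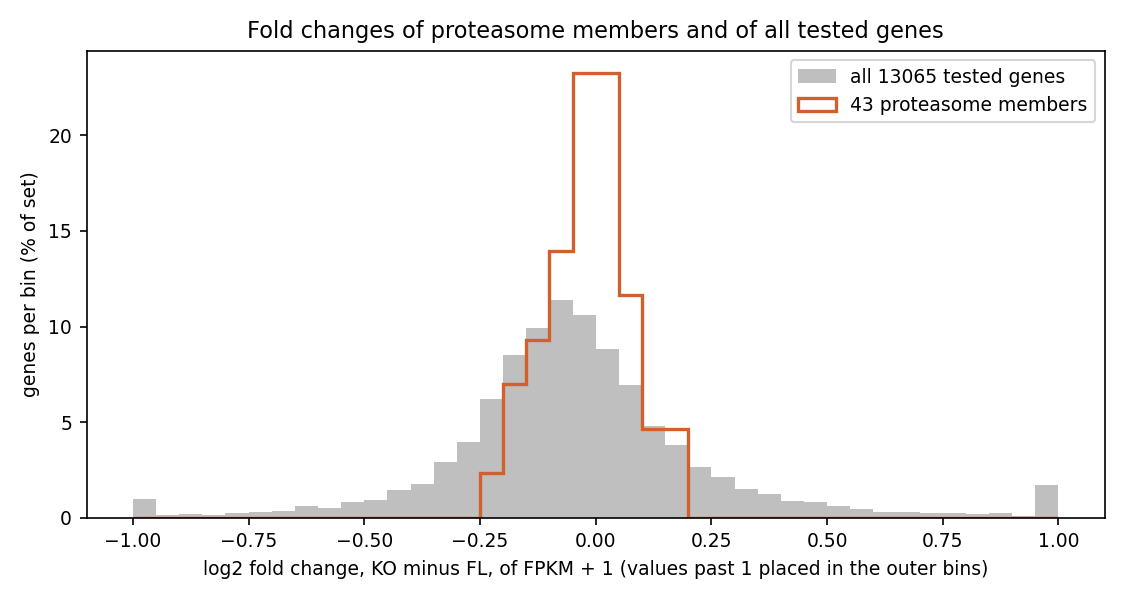
Share of genes (y axis, % of each set per bin of 0.05) against the log2 fold change of FPKM + 1, KO minus FL (x axis), for all 13065 tested genes in grey and for the 43 tested proteasome members as an orange outline. The members sit between −0.22 and 0.18, and the outer bins gather the genes of the whole table that changed by more than 1 on the log2 scale.

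These counts depended on how the libraries were put on 1 scale. The deposited values placed 2150 genes lower and 1183 higher in KO, while rescaling each library by its median ratio to the others gave 1530 lower and 1614 higher, which are 11.7% and 12.4% of the tested genes. After that rescaling Psme1 was still lower and the other two called members were not, 6 members were higher (Psmc1, Psmc2, Psmc3, Psmd6, Psmd7 and Psmg1), and the members' median log2 fold change was 0.047, while that of all tested genes moved to −0.004. Rescaling shifted all genes in much the same way, so the sign of the family's median changed while its place above the median of all tested genes did not. Rescaling by the upper quartile, to the same sum (TPM) and by quantiles were tried as well, and these, with the median ratio, are the 4 rescalings referred to below. No overlap, with KO below FL, was found for 3 members, Psme1, Psmc4 and Psmd1, as for 12.5% of all tested genes, and with KO above FL for 1, Psmd7, as for 6.67%. The Wilcoxon calls given above fell on these same members. For 5 mice against 5, no overlap fixes the exact permutation p at 0.00794. Where that unadjusted p is printed below, it restates the lack of overlap and adds nothing to it.

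**Figure D2:**
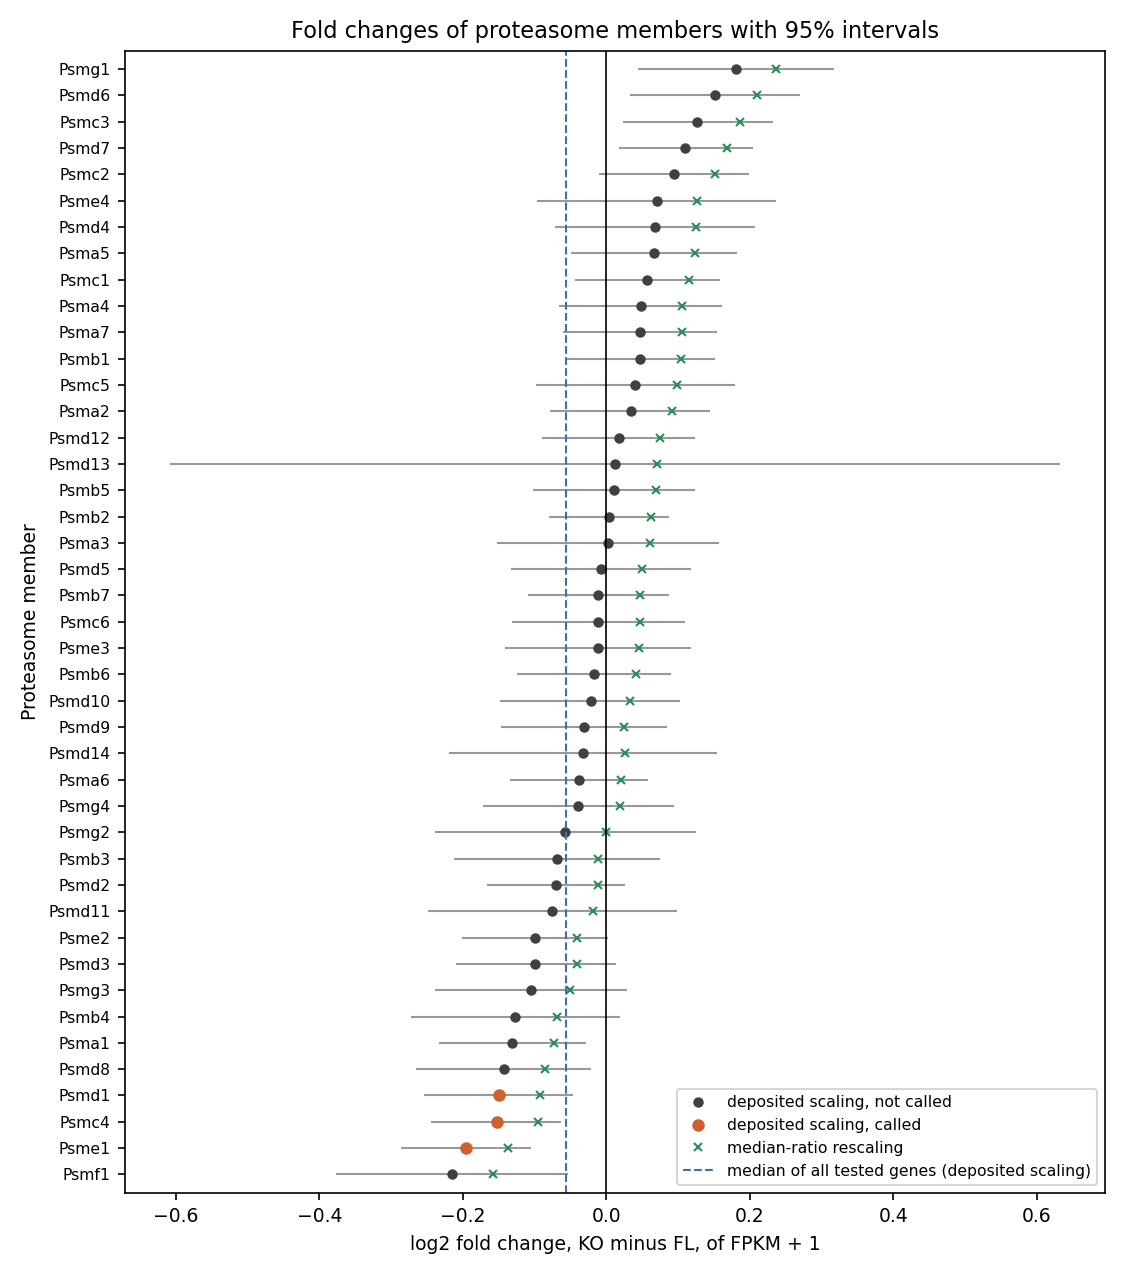
Log2 fold change of FPKM + 1, KO minus FL (x axis), of each tested proteasome member (y axis), with points for the deposited scaling, grey lines for limma's 95% intervals (n = 5 per group) and crosses for median-ratio rescaling. The 3 members called at the deposited scaling are orange and lie between −0.20 and −0.15, and each cross sits to the right of its point.

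The members were among the more abundant genes of the islets. In FL their means ran from 16.1 FPKM (Psmd10) to 482 FPKM (Psme2) with a median of 80.4 FPKM, and all 43 tested members were above the median of all tested genes, 13.9 FPKM. FPKM is a level per exon length and lets genes be set side by side. The order of the levels was nearly the same in both genotypes, with a Spearman rho of 0.986 between FL and KO means over the 43 genes, given as a description since the libraries of each group are shared by all of them. Within a group the members varied between mice by a median coefficient of variation of 5.39%, against 9.7% over all tested genes and 7.93% over those in the same range of FPKM.

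**Figure D3:**
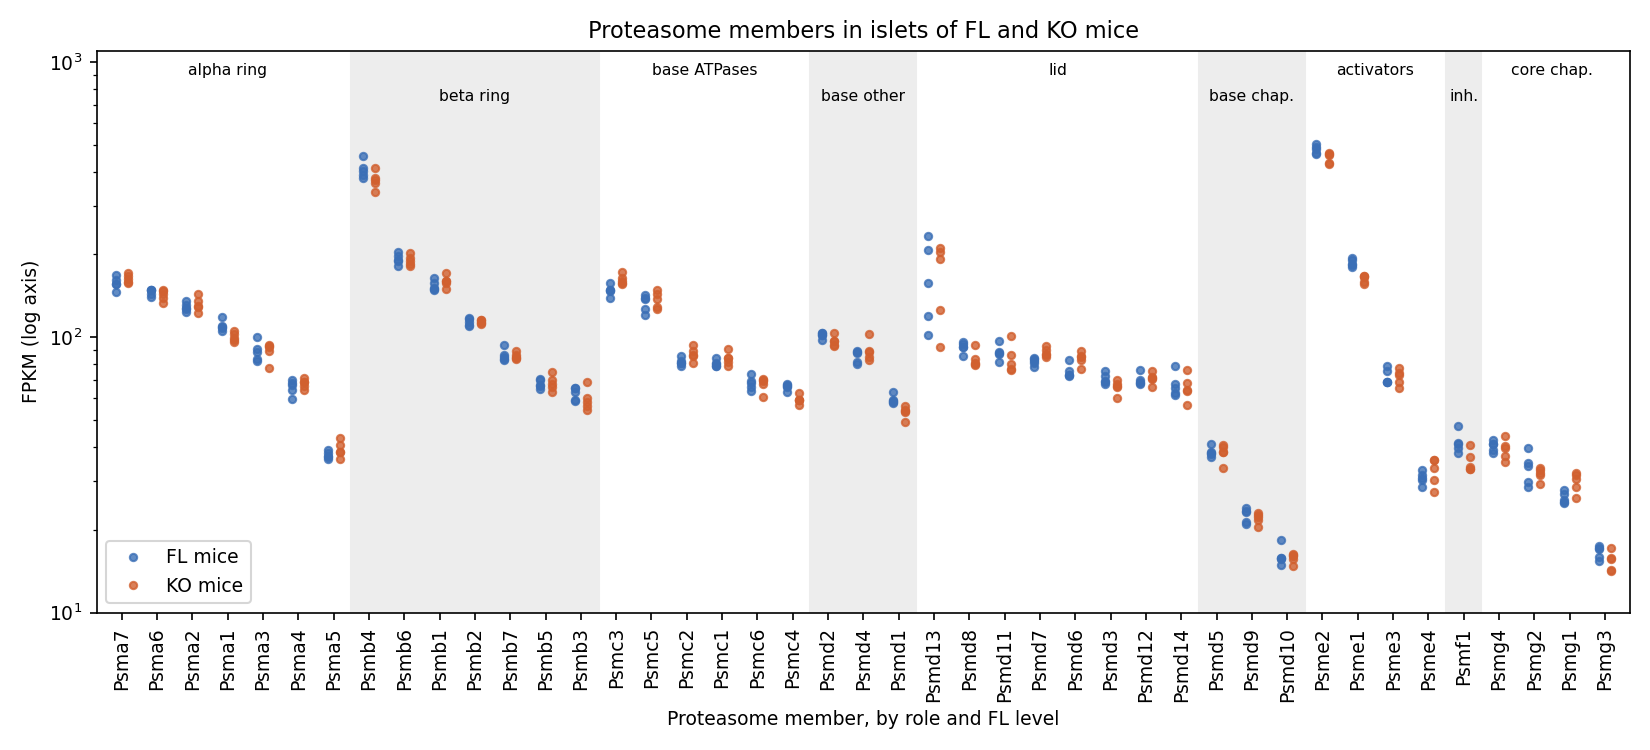
FPKM on a log axis (y axis) of the 43 tested proteasome members (x axis), grouped by role and ordered by FL mean, with 1 point per mouse for FL (blue) and KO (orange). Levels run from Psmd10 at 16.1 FPKM to Psme2 at 482 FPKM in FL, and the points of Psmd13 are the most scattered.

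A search of promoters showed which letters the genes share upstream of their starts. RefSeq windows of 300 bases (GRCm38.p6, 250 before and 50 after a start) were at hand for 37 of the 45 members, in 40 windows, and were searched on both strands for the letters TGACNNNGC (the core of the antioxidant response element, which NFE2L1 binds when it raises proteasome genes), CCAAT (bound by NF-Y), CCGGAAG (bound by ETS factors) and GCATGCGC (part of the site of nuclear respiratory factor 1). CCGGAAG was in 15 of the 40 windows (37.5%), against 8.86% of all 32851 windows. TGACNNNGC was in 6 (15%), against 12.4%, CCAAT in 13 (32.5%), against 37.4%, and GCATGCGC in 3 (7.5%), against 2.71%. All windows belong to 27025 genes, with no filter on expression in islets. No share among tested genes or genes of similar FPKM was taken, so no string is read as particular to the proteasome. The windows of the called members Psme1, Psmc4 and Psmd1 held none of these 4 strings. The following stretches of 60 bases, on the strand of the gene and outside annotated exons, show the antioxidant response core of a pair of catalytic subunits and the ETS string of a base ATPase, a base scaffold and a core chaperone, with the matched letters in capitals (in Psmd2 the match is on the other strand, so that its reverse complement is printed).
Psmb5, chr14:54618023-54618082, minus strand: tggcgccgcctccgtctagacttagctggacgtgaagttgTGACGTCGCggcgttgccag
Psmb6, chr11:70525297-70525356, plus strand: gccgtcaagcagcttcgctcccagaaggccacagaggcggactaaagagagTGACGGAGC
Psmc6, chr14:45329724-45329783, plus strand: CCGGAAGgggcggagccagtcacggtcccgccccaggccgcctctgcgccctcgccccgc
Psmd2, chr16:20651592-20651651, plus strand: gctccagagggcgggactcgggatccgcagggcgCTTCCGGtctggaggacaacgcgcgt
Psmg1, chr16:95990970-95991029, minus strand: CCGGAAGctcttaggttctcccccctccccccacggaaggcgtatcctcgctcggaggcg

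In the alpha ring, the gate of the core, 0 of 7 tested members were called by limma and 1, Psma1, had an unadjusted p under 0.05. Over all tested genes 16.5% were called lower and 9.05% higher, and 37.7% had an unadjusted p under 0.05. With groups this small, no count by role here or below is read as a result about that role. Psma7 had the highest FL mean at 158 ± 8.5 FPKM and Psma5 the lowest at 37.4 ± 1.19 FPKM (SD, n = 5), a 4.22-fold span in a ring that holds its subunits in equal numbers. Psma7 and Psma6 (146 ± 4.15 FPKM) overlapped between FL mice, whereas the FL ranges of Psma6, Psma2 and Psma1 did not. The order of the 7 genes was the same in KO. Psma1 had a KO to FL ratio of means of 0.912, a change of −0.13 ± 0.047 on the log2 scale (SE; limma adjusted p = 0.0617). Psma2 (129 ± 4.64 against 132 ± 8.02 FPKM), Psma3 (88.8 ± 7.37 against 89.0 ± 6.75 FPKM) and Psma4 (65.9 ± 4.01 against 68.1 ± 2.66 FPKM) overlapped between FL and KO. The testis-specific alternative subunit Psma8 was under the filter, with 0 to 0.103 FPKM across the 10 libraries.

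In the beta ring 0 of 7 tested members were called, and 0 had an unadjusted p under 0.05 in limma. Psmb4, a non-catalytic subunit, had the highest FL mean at 408 ± 30.5 FPKM and Psmb3, another non-catalytic one, the lowest at 62.4 ± 3.13 FPKM (SD, n = 5), a 6.54-fold span. Psmb11, the thymus form, was listed at 0 in every library. Psmb1 (155 ± 6.56 against 160 ± 7.42 FPKM) and Psmb2 (114 ± 3.43 against 114 ± 2.02 FPKM), which carry no protease site either, lay between them. The order of the 7 genes was again the same in KO.

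The catalytic subunits overlapped between genotypes. Psmb5, the chymotrypsin-like protease (chromosome 14, 54614119 to 54618022), was at 70.3, 66.9, 66.6, 69.9 and 65.1 FPKM in FL mice 1 to 5 and at 67.8, 74.9, 66.0, 63.1 and 70.1 FPKM in KO mice 1 to 5. Its highest and its lowest library were both KO, and its log2 fold change was 0.011 (95% interval −0.10 to 0.12 from limma). Its exons share 109 bases with the miRNA gene Mir686 on the same strand, which was listed at a mean of 1270 FPKM. How reads there were divided is not given in the sources used here, and their part in the level of Psmb5 was not tested.

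Psmb6, the caspase-like protease, was at 181, 190, 198, 205 and 191 FPKM in FL and at 185, 203, 189, 181 and 194 FPKM in KO. The groups covered nearly the same range, with a log2 fold change of −0.017 (95% interval −0.12 to 0.090 from limma). Psmb7, the trypsin-like protease, was at 85.9, 85.0, 82.8, 93.5 and 83.7 FPKM in FL and at 83.9, 89.1, 86.0, 85.1 and 83.4 FPKM in KO. FL mouse 4 was its highest library and the KO values lay within the FL range, with a log2 fold change of −0.011 (95% interval −0.11 to 0.087 from limma). Signs this close to 0 changed with the scaling, which shifts all genes together, or with single mice left out.

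The immunoproteasome subunits, which replace the catalytic ones in immune cells and under interferon, are set beside their partners for this reason. Psmb9, the partner of Psmb6, fell from 25.4 ± 0.927 FPKM in FL to 20.6 ± 2.61 FPKM in KO (SD, n = 5), which is a log2 fold change of −0.30 (limma adjusted p = 0.0184). Psmb8 (33.6 ± 3.32 against 33.5 ± 5.15 FPKM) and Psmb10 (34.2 ± 1.22 against 32.6 ± 4.53 FPKM) were not called. With 16.5% of all tested genes called lower, 1 of 3 is not read as a result about these subunits. The ratio of Psmb9 to Psmb6 was 0.147, 0.127, 0.126, 0.126 and 0.133 in FL and 0.0918, 0.116, 0.101, 0.115 and 0.115 in KO. All KO ratios were below all FL ratios (exact two-sided permutation p = 0.00794, the smallest that 5 against 5 can give, and 0.0318 after Benjamini-Hochberg adjustment over the 4 ratios examined). Psmb9 by itself did not overlap either, as for 12.5% of all tested genes, so the ratio largely restates Psmb9. An adjustment over 4 ratios is also milder than the one over 13065 genes and does not restore the calls lost below. The ratio of Psmb8 to Psmb5 was 0.495 ± 0.0372 in FL and 0.49 ± 0.0583 in KO (exact permutation p = 0.873, adjusted 0.873), and that of Psmb10 to Psmb7 was 0.397 ± 0.0238 and 0.382 ± 0.0528 (exact permutation p = 0.556, adjusted 0.741; SD, n = 5). The Psmb9 call was lost under each of the 4 rescalings tried (adjusted p from 0.0512 to 0.0599 in limma), where its log2 fold change was −0.26 to −0.23. It was also lost with a replicate block (limma adjusted p = 0.056), where the log2 fold change stayed at −0.30. A ratio within a library is left as it is by any rescaling that multiplies a whole library by 1 factor, as quantile normalisation does not.

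Of the 6 base ATPases, which form the ring that unfolds substrates, 1 fell and 0 rose at an adjusted p of 0.05 in limma. Over all tested genes 16.5% fell and 9.05% rose. Unadjusted p-values under 0.05 were found for 1 lower and 1 higher member, and for 37.7% of all tested genes. Psmc4 (chromosome 7, 28041707 to 28050101, minus strand) was at 66.7, 63.5, 65.8, 66.9 and 67.7 FPKM in FL mice 1 to 5 and at 59.0, 62.9, 59.4, 56.6 and 59.0 FPKM in KO mice 1 to 5. All KO libraries were below all FL libraries, though KO mouse 2 at 62.9 FPKM came close to FL mouse 2 at 63.5 FPKM. On the log2 scale it changed by −0.15 ± 0.041 (SE; limma adjusted p = 0.0193, exact permutation p = 0.00794), a ratio of means of 0.898. The call was lost without KO mouse 4 (limma adjusted p = 0.0526), under each of the 4 rescalings (0.0735 to 0.113) and with a replicate block (0.0866).

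Psmc4 also had the lowest mean of the ATPases, and Psmc3, with 148 ± 6.51 FPKM in FL, the highest (SD, n = 5). Psmc3 was at 162 ± 7.13 FPKM in KO (log2 fold change 0.13 ± 0.047, SE, limma adjusted p = 0.0714). Its exons overlap those of Slc39a13 on the opposite strand by 215 bases. The ratio of the highest to the lowest FL mean was 2.24, and Psmc2 (81.5 ± 2.49 FPKM) and Psmc1 (80.4 ± 2.18 FPKM), neighbours in the order, overlapped. Psmc5 (133 ± 9.23 against 137 ± 9.26 FPKM) and Psmc6 (68.2 ± 3.73 against 67.7 ± 3.94 FPKM) overlapped between FL and KO.

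Of the 3 base subunits without ATPase activity, 1 fell and 0 rose by limma, where 16.5% and 9.05% of all tested genes did. Psmd1, a scaffold of the base (chromosome 1, 86064387 to 86139151), was at 57.6, 58.7, 59.2, 63.5 and 58.2 FPKM in FL and at 53.4, 49.3, 54.6, 56.1 and 54.1 FPKM in KO. The groups did not overlap, the closest libraries being FL mouse 1 at 57.6 FPKM and KO mouse 4 at 56.1 FPKM. On the log2 scale it changed by −0.15 ± 0.047 (SE; limma adjusted p = 0.0391, exact permutation p = 0.00794). The call held without FL mouse 1 (0.0489) or KO mouse 4 (0.0441). It was lost when any other mouse was left out (limma adjusted p from 0.0513 to 0.0807), under the 4 rescalings (0.107 to 0.294) and with a replicate block (0.0754). Psmd2, the other scaffold, had the highest mean at 102 ± 2.67 (FL) and 97.1 ± 4.49 FPKM (KO), and the ubiquitin receptor Psmd4 was at 85.3 ± 4.44 and 89.6 ± 7.81 FPKM (SD, n = 5), with neither called.

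In the lid 0 of 8 members were called by limma, and unadjusted p-values under 0.05 were found for 1 lower (Psmd8) and 2 higher (Psmd6 and Psmd7). Psmd14, the deubiquitinase that cuts the ubiquitin chain off the substrate, was at 78.5, 65.5, 61.6, 62.7 and 67.9 FPKM in FL and at 64.3, 68.1, 75.9, 63.7 and 56.9 FPKM in KO. FL mouse 1 and KO mouse 3 stood above the rest of their groups and the groups overlapped, with a log2 fold change of −0.032 (95% interval −0.22 to 0.15 from limma). It had the lowest mean of the lid.

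Psmd7, the inactive partner of Psmd14 (chromosome 8, 107580381 to 107588464, minus strand), was at 77.7, 83.4, 84.2, 82.3 and 80.6 FPKM in FL and at 90.3, 92.9, 86.4, 86.9 and 84.6 FPKM in KO. All 5 KO libraries were above all FL libraries, the closest being KO mouse 5 at 84.6 FPKM and FL mouse 3 at 84.2 FPKM. On the log2 scale it changed by 0.11 ± 0.042 (SE; limma adjusted p = 0.0808, exact permutation p = 0.00794). It was called under the 4 rescalings (limma adjusted p from 0.00384 to 0.0272). With a GC content and length correction its log2 fold change was 0.072 (limma adjusted p = 0.242), and a replicate block gave 0.11 (0.171). Psmd6, another lid subunit, was at 75.4 ± 4.31 (FL) and 83.8 ± 4.48 FPKM (KO; limma adjusted p = 0.0605), and FL mouse 4 at 82.7 FPKM lay among the KO values. Psmd8 was at 92.2 ± 3.93 and 83.5 ± 5.98 FPKM (SD, n = 5; limma adjusted p = 0.0814), and KO mouse 5 at 93.9 FPKM lay among the FL values.

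Psmd13, a structural subunit of the lid (chromosome 7, 140881968 to 140898643), had the highest lid mean and was unlike the other members. Its libraries were at 157, 120, 208, 102 and 234 FPKM in FL and at 212, 91.9, 193, 205 and 126 FPKM in KO. High and low libraries occurred in both genotypes, with a coefficient of variation within groups of 33.3%, where the next member, Psmd14, had 10.3%. Of the 5815 tested genes in the members' range of FPKM, 98.2% varied less. Its log2 fold change of 0.012 had a 95% interval from −0.61 to 0.63 in limma, so a change of 1.5-fold in either direction was not excluded for this gene. Sirt3, which overlaps its first exons on the opposite strand by 342 bases, stayed between 10.7 and 15.9 FPKM and was itself lower in KO (limma adjusted p = 0.00429). Psmd3 (70.7 ± 3.01 against 66.0 ± 3.65 FPKM), Psmd11 (88.2 ± 5.57 against 83.9 ± 10.1 FPKM) and Psmd12 (70.1 ± 3.37 against 70.9 ± 3.23 FPKM) overlapped between FL and KO. Leaving Psmd13 aside, the lid means in FL ran from 67.2 to 92.2 FPKM, a 1.37-fold span.

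**Figure D4:**
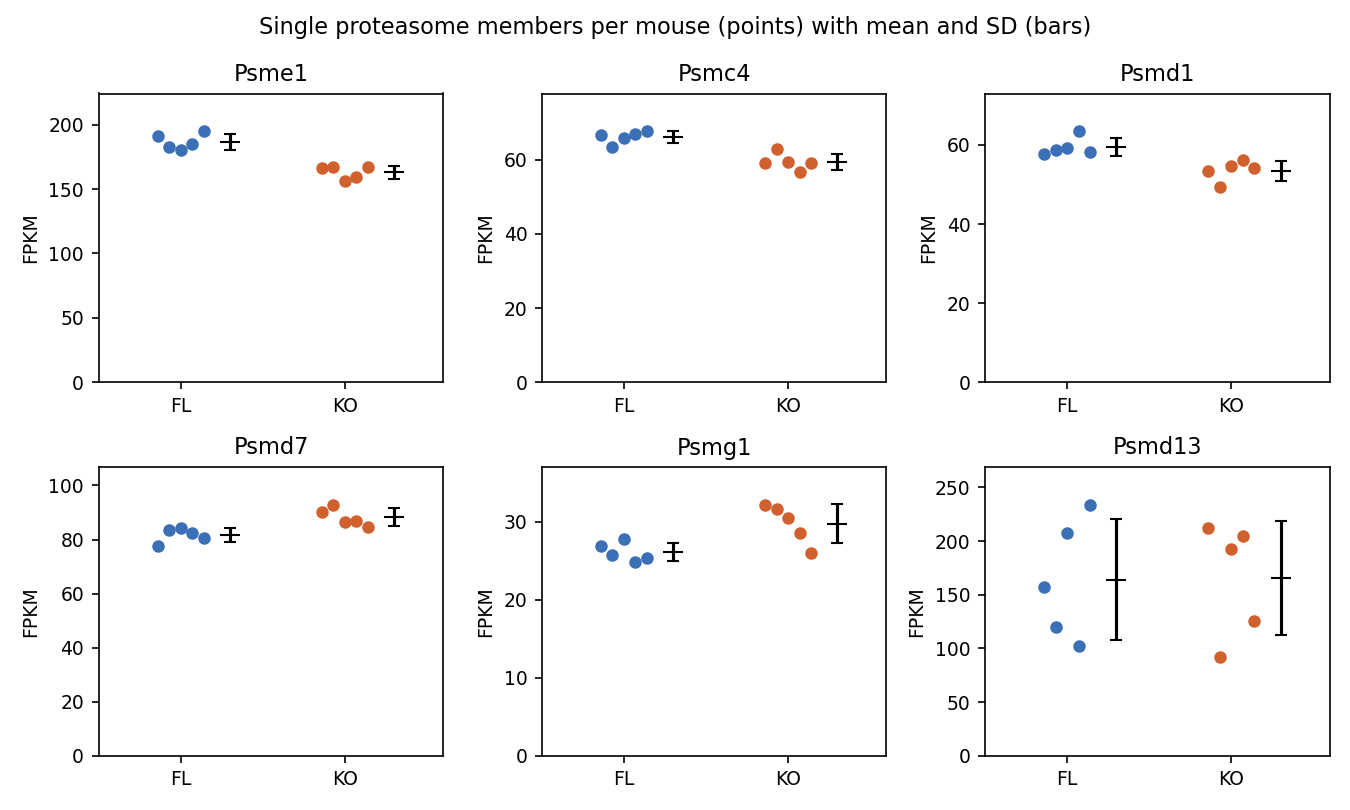
FPKM (y axis, from 0) of Psme1, Psmc4, Psmd1, Psmd7, Psmg1 and Psmd13 in each mouse, FL in blue and KO in orange (x axis), with the mean and SD (n = 5) as black bars. The groups of Psme1, Psmc4, Psmd1 and Psmd7 do not overlap, those of Psmg1 overlap, and Psmd13 is scattered in both.

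Summed over their genes, core and cap were at overlapping levels in FL and KO. The 16 core genes added up to 1792, 1769, 1810, 1927 and 1810 FPKM in FL and to 1769, 1897, 1792, 1729 and 1746 FPKM in KO. The 17 cap genes of base and lid added up to 1534 ± 62.5 (FL) and 1545 ± 53.7 FPKM (KO), and without Psmd13 to 1370 ± 16.3 and 1380 ± 55 FPKM (SD, n = 5). FL mouse 4 and KO mouse 2 were the highest of their groups for the core. The 4 activators added up to 772.2 ± 19.1 (FL) and 717.4 ± 20.2 FPKM (KO). Their sums ran from 743.3 to 787.8 FPKM in FL and from 692.1 to 743.3 FPKM in KO. Over all 45 members the sum was 4362 ± 80.7 (FL) and 4277 ± 113 FPKM (KO).

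Among the 4 activators, which open the core in place of the cap, 1 fell and 0 rose by limma. Over all tested genes 16.5% fell and 9.05% rose. Psme1 and Psme2 form the interferon-inducible activator ring PA28. Psme1 (chromosome 14, 55578123 to 55581529) was at 191, 183, 180, 185 and 195 FPKM in FL and at 166, 167, 156, 159 and 167 FPKM in KO. The highest KO libraries, at 167 FPKM, were below the lowest FL library, at 180 FPKM. On the log2 scale it changed by −0.20 ± 0.041 (SE; limma adjusted p = 0.00608, exact permutation p = 0.00794), a ratio of means of 0.873. It stayed called whichever mouse was left out (adjusted p from 0.00666 to 0.0195) and in 25 of 27 alternatives, and was lost with upper-quartile rescaling (0.0655) and where a 1.5-fold change was required as well. Its exons share 14 bases with Emc9 on the opposite strand.

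Psme2, its ring partner, had the highest level of any member, at 483, 504, 465, 491 and 468 FPKM in FL and 431, 469, 426, 464 and 461 FPKM in KO. Its groups overlapped by KO mouse 2 at 469 FPKM, with a log2 fold change of −0.099 ± 0.046 (SE; limma adjusted p = 0.139). Its retrocopy Psme2b was at only 1.21 to 2.89 FPKM. How reads that fit both genes were divided is not given in the sources used here, and their part in the level of Psme2 was not tested. The ratio of Psme1 to Psme2 was 0.388 ± 0.0201 in FL and 0.363 ± 0.0161 in KO (SD, n = 5; exact permutation p = 0.0635, adjusted 0.127 over the 4 ratios). Psme3, the nuclear form of the activator, was at 72.2 ± 4.51 and 71.6 ± 4.58 FPKM, and Psme4, the single-chain activator, was the lowest at 30.8 ± 1.59 and 32.6 ± 3.65 FPKM, with neither called.

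Psmf1, the inhibitor of the core, had the lowest fold change of the family. It was at 40.9, 37.9, 41.2, 47.5 and 39.7 FPKM in FL and at 33.2, 40.7, 36.7, 33.3 and 33.9 FPKM in KO. KO mouse 2 at 40.7 FPKM lay within the FL values and the other KO libraries below them. On the log2 scale it changed by −0.22 ± 0.073 (SE; limma adjusted p = 0.0525), and it passed the threshold in 6 of the 27 alternatives, among them the estimation of sample weights (0.0134) and the leaving out of KO mouse 2 (0.0168).

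The 7 members that are chaperones and build the particles had FL means from 16.1 to 40.2 FPKM. Of the 3 base chaperones 0 were called and 0 had an unadjusted p under 0.05 in limma, with Psmd5 highest at 38.3 ± 1.62 FPKM and Psmd10 (gankyrin) lowest at 16.1 ± 1.33 FPKM in FL (SD, n = 5), and Psmd9 at 22.5 ± 1.35 FPKM. Of the 4 core chaperones 0 were called, and 1, Psmg1, had an unadjusted p under 0.05. Psmg4 was the highest at 40.2 ± 1.7 FPKM and its partner Psmg3 the lowest at 16.6 ± 0.89 FPKM in FL.

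Psmg1, which pairs with Psmg2 to build the alpha ring (chromosome 16, 95979933 to 95990960, minus strand), was at 26.9, 25.7, 27.8, 24.9 and 25.3 FPKM in FL and at 32.2, 31.6, 30.5, 28.6 and 26.0 FPKM in KO. KO mouse 5 at 26.0 FPKM lay among the FL values and the other KO libraries above them. The log2 fold change of 0.18 ± 0.062 was the highest of the family (SE; limma adjusted p = 0.0537). It passed the threshold without KO mouse 5 (0.0123), under the 4 rescalings (0.00647 to 0.0271) and in 8 of 27 alternatives in all. KO mouse 5 was also the library with the highest summed acinar markers, 18100 FPKM against 3660 to 9690 FPKM in FL, and the part of acinar RNA in its low value was not tested. Psmg2 was at 33.4 ± 4.41 (FL) and 31.9 ± 1.62 FPKM (KO; SD, n = 5).

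Proteasome genes outside the Psm names were looked at by lists. Of 16 tested genes of assembly, ubiquitin handling and transport, 2 rose and 2 fell in KO by limma, shares near the 9.05% and 16.5% of all tested genes, and the median log2 fold change was −0.068, beside −0.056 over all tested genes. Uchl5, a deubiquitinase docked on the base, rose, at 27.4, 24.9, 25.2, 29.2 and 26.1 FPKM in FL and 34.5, 32.4, 35.8, 34.3 and 32.3 FPKM in KO. Its groups did not overlap, and its log2 fold change of 0.34 ± 0.054 (SE; limma adjusted p = 0.00111) was higher than that of every tested member. Adrm1, the receptor on which Uchl5 docks, was at 34.5 ± 0.591 and 32.7 ± 2.19 FPKM (SD, n = 5; limma adjusted p = 0.285).

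Of the ubiquitin shuttles, Ubqln4 rose from 19.3 ± 1.44 to 21.8 ± 0.519 FPKM (adjusted p = 0.0391) and Ubqln2 fell from 61.9 ± 3.51 to 54.6 ± 0.988 FPKM (adjusted p = 0.0181), and Akirin2, which brings proteasomes into the nucleus, fell from 39.9 ± 1.84 to 35.3 ± 2.42 FPKM (SD, n = 5; adjusted p = 0.0421, all from limma). Uchl5 kept its call under each rescaling and each mouse left out, and Ubqln4 under the same 4 rescalings (though not on the members' own median, adjusted p = 0.0654), whereas Akirin2 lost it under the 4 rescalings (0.089 to 0.193) and Ubqln2 under 3 of them (0.0834 to 0.117). Ubqln4 lost its call when any of 9 mice was left out (0.0559 to 0.0795), Akirin2 when any of 7 was (0.0634 to 0.0882). The core chaperone Pomp was at 204 ± 13.2 (FL) and 201 ± 16.2 FPKM (KO; SD, n = 5).

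Of 14 regulators of proteasome gene transcription, 1 rose and 2 fell by limma, again near the shares over all tested genes, with a median log2 fold change of 0.007. Nfe2l1, the factor that raises proteasome genes when degradation falls short, was at 312 ± 28.7 (FL) and 330 ± 15 FPKM (KO; SD, n = 5; limma adjusted p = 0.389). Ddi2, the protease that frees Nfe2l1 from the endoplasmic reticulum membrane, fell, at 16.1, 17.5, 19.2, 18.0 and 17.3 FPKM in FL and 13.8, 15.1, 14.3, 14.8 and 15.1 FPKM in KO. Its groups did not overlap (log2 fold change −0.25 ± 0.051, SE, limma adjusted p = 0.0049).

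Nrf1, which codes for nuclear respiratory factor 1 and is a different gene from Nfe2l1, rose from 32.9 ± 1.86 to 42.9 ± 3.43 FPKM (SD, n = 5), which is a log2 fold change of 0.37 ± 0.063 (SE; limma adjusted p = 0.00168), and its groups did not overlap. Keap1, the adaptor that marks Nfe2l2 for degradation, fell from 37.6 ± 1.25 to 33.8 ± 2.14 FPKM (limma adjusted p = 0.0486), a call lost under the 4 rescalings (0.159 to 0.191) and when any of 9 mice was left out (0.0511 to 0.112). Ddi2 and Nrf1 kept theirs under each rescaling and each mouse left out.

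Of the 6 ubiquitin genes and activating enzymes, 0 were called and 0 had an unadjusted p under 0.05 in limma, with 0 called by the Wilcoxon test. Over all tested genes 16.5% were lower and 9.05% higher by limma, so counts this small are not read as a result about either this list or the next. Of the 5 genes of p97 and the ligases that feed the proteasome from the endoplasmic reticulum, 0 were called by limma or the Wilcoxon test and 1, March6, had an unadjusted p under 0.05 in limma, with Vcp at 84.3 ± 3.75 (FL) and 82.0 ± 5.54 FPKM (KO) and the ligase March6 at 60.4 ± 5.26 and 53.2 ± 5.09 FPKM (SD, n = 5; limma adjusted p = 0.116).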

How the data were processed

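RNA libraries were made by the submitters with a stranded poly(A) kit and sequenced as single-end 75-base reads. The authors deposited 1 table of FPKM, normalised across libraries, with 1 column per mouse for 47340 genes, of which 22548 were at 0 in all 10 libraries. Their processing notes name STAR 2.5.2a, Cuffnorm 2.2.1 and mm10 (GRCm38); annotation release and strand setting are not given in the sources used here. FPKM hold no read counts, so counting error is unknown. Gene identifiers of all 45 members matched GENCODE M21 (GRCm38) without version, 28 with it, and coordinates were taken from there.

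KO was set against FL in limma 3.58.1 under R 4.3.3, with lmFit and trended eBayes, on log2(FPKM + 1), which understates changes of low genes, over the 13065 genes whose FL or KO mean reached 1 FPKM. Calls used Benjamini-Hochberg adjusted p-values at 0.05. Single genes and ratios were also compared by an exact two-sided permutation test. The procedure was also run on simulated data, but the outcome is not given here and no result above rests on it. Summaries were made in Python 3.11.15 with pandas 2.3.3 and figures with matplotlib 3.10.9.

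Values per mouse are given for catalytic subunits, Psmd14 and called members without overlap, by rule; those of Psmd7, Psmd13, Psme2, Psmf1, Psmg1, Uchl5 and Ddi2 were added after the values were seen, as was rescaling to the members' own median. Members and lists were chosen with earlier results of these data known. Alternatives were other pseudocounts (0.1 and 0.01), filters (none, or 5 FPKM), scalings, limma settings and a rank test. Further ones were a replicate block, a GC content and length correction, both of these at once, a 1.5-fold threshold and leaving out each mouse. The listed gene Paaf1 was not analysed here.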

Additional observations from a re-analysis of the deposited data

Results flagged for a closer look

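In 6 of 86 sets of 5 libraries (43 members in each genotype), 1 library stood apart from the other 4 by Dixon's criterion, where chance gives about 1 in 20. In KO mouse 5, the library with the highest acinar markers, Psma3 was at 77.3 FPKM against 89.1 to 93.8 FPKM in the other KO mice, Psmc6 at 60.8 FPKM against 67.8 to 70.3 FPKM, and Psmd8 at 93.9 FPKM against 79.5 to 83.3 FPKM. In FL mouse 4, Psmd1 was at 63.5 FPKM against 57.6 to 59.2 FPKM in the other FL mice, Psmd10 at 18.4 FPKM against 14.9 to 15.8 FPKM, and Psmd12 at 76.0 FPKM against 67.8 to 69.7 FPKM. Of these genes Psmd1 was called lower in KO, with an adjusted p of 0.0807 from limma without FL mouse 4, and Psmd8 was called lower only where KO mouse 5 was left out, where sample weights were estimated and where GC content and length were corrected for.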

How the results depend on the processing

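Which members passed 0.05 in limma changed with several choices, and the cause was not tested. By median ratio, upper quartile, the same sum (TPM) and quantiles, members called lower numbered 1, 0, 1 and 1 and higher 6, 6, 4 and 6, with member medians of 0.047, 0.055, 0.032 and 0.053 (log2). The medians of all tested genes moved with them, to −0.004, 0.004, −0.018 and −0.016, and 11.1% to 13.1% of all tested genes were lower and 10.6% to 12.8% higher. Sample weights gave 6 lower and 3 higher (21.7% and 11% of all genes), rescaling to the members' own median (chosen after seeing the data) 5 and 1 (21.5% and 8.55%), a 5 FPKM filter 4 and 1 (19% and 8.27%), the Wilcoxon test 3 and 1 (12.5% and 6.67%), the GC content and length correction 7 and 0 (19.3% and 9.57%, with a member median of −0.043, 28 members below 0 and 15 above), and a required 1.5-fold change 0 and 0, with 290 and 349 over all genes. Leaving out single mice gave 2 to 3 lower and 0 to 2 higher (1 without FL mouse 4, 2 without KO mouse 5), beside 12.2% to 18.1% lower and 7.17% to 8.65% higher over all genes, and member medians from −0.026 to 0.012.

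Deviations from the group means were hardly correlated between FL and KO libraries of the same replicate number (−0.102 to 0.00305). Such correlations cannot show whether those mice were littermates or handled together, so pairing is unknown. A replicate block left 1 member lower (Psme1) and 0 higher, with 1494 and 874 genes in all. In limma it ended the calls of Psmc4 (adjusted p = 0.0866), Psmd1 (0.0754), Psmb9 (0.056), Ubqln2 (0.0614), Ubqln4 (0.0819), Akirin2 (0.117) and Keap1 (0.109). The block together with the GC content and length correction gave 4 members lower (Psma1, Psmc4, Psmd1 and Psme1) and 0 higher. Over all genes that fit gave 1815 lower and 977 higher.

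Signs near 0 changed where a rescaling moved all genes together, which says nothing of single genes. Under the same 4 rescalings Psmb6 was at 0.041, 0.050, 0.026 and 0.042, Psmb7 at 0.047, 0.055, 0.033 and 0.043 and Psmd14 at 0.025, 0.034, 0.011 and 0.034. Psmb5 was at −0.001 with sample weights and −0.013 on the members' own median. With single mice left out Psmb5 ran from −0.022 to 0.039, Psmb6 from −0.040 to 0.005, Psmb7 from −0.026 to 0.019 and Psmd14 from −0.085 to 0.024. The rank test and the 1.5-fold threshold give no median of their own. Counting motifs only before the start left TGACNNNGC in 12.5%, CCAAT in 32.5%, CCGGAAG in 32.5% and GCATGCGC in 5.0% of member windows, against 10.2%, 33.8%, 6.91% and 2.26% of all windows. Depth is unknown, which limits Psma8 and Psmb11, and the intervals of Psmd13 allow changes past 1.5-fold.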
